A study of Mus musculus with 4 samples.

Results

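The genes described here are 10 regulators and markers of the brown and beige fat cell lineage: Prdm16, Ebf2, Ebf1, Ebf3, Tbx1, Tmem26, Ehmt1, Tle3, Irf4 and Zfp423. They were taken from a fixed list of gene symbols, and all 10 had a value among the 13677 genes measured. RNA sequencing was done on inguinal white adipose tissue, the subcutaneous fat depot of the mouse groin, in 2 wildtype (WT) libraries and 2 libraries whose label, FLCNKO, stands for an adipose knockout of Flcn, which encodes the tumour suppressor folliculin. Those 2 are called FLCNKO here by their label. The labels used here name neither the Cre driver, the deleted part of Flcn, strain, sex and age nor the animal behind each library, so the p-values rest on the spread among these 4 libraries alone, which may be technical. The series asks how folliculin acts on browning, in which white fat takes on features of brown fat.

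Brown fat cells and the beige cells that arise within white depots burn fuel to make heat. PRDM16 is a zinc finger protein that switches precursor cells towards this fate, and EHMT1 is the histone methyltransferase that works in its complex. EBF2 marks brown and beige precursors and opens the regulatory regions of brown genes together with PPARgamma. TLE3 and ZFP423 hold back the thermogenic programme in white fat, ZFP423 by binding EBF2, and IRF4 is the partner through which PGC-1alpha drives thermogenic genes. TBX1 and TMEM26 are used as beige markers. A fall or rise of the mRNA of these genes reports nothing on the protein or its activity.

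The values are the authors' deposited expression values, assumed here to be on a log2 scale, and the read depth behind them is unknown. The median over all genes was 10.76 in each library, and each difference below is the FLCNKO mean minus the WT mean on this log2 scale. Flcn itself did not separate the groups, with WT values of 12.36 and 12.21 against FLCNKO values of 12.35 and 12.12, and without knowing the deleted part this says nothing of whether the labels are right. The adipocyte markers, among them Adipoq, Fabp4 and Car3, had library medians from 17.61 to 18.22, so the defining markers of the labelled tissue were present and high. Skeletal muscle and B cell markers varied between libraries, as given beside Irf4.

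None of the 10 lineage regulators passed the test between the groups (limma, adjusted p under 0.05 over all genes), against 1.59% of all genes called (0.98% higher and 0.614% lower). At an unadjusted p under 0.05, 1 was higher (Tbx1) and 3 were lower (Ebf2, Tmem26 and Zfp423), where 22.4% of all genes were past that mark, 12.1% higher and 10.3% lower. In 7 of the 10 the groups did not overlap, as in 54.6% of all genes. The median difference of the 10 genes was -0.07, beside 0.0046 for all genes, and single genes ran from -0.87 for Tmem26 to 1.50 for Tbx1. The genes divide into those with close replicates and little difference (Prdm16, Ebf1, Ehmt1), 4 whose groups stood apart without passing (Ebf2, Zfp423, Tmem26, Tbx1), and 2 whose replicates spread widely (Tle3, Irf4), with Ebf3 between the first 2 kinds.

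**Figure D1:**
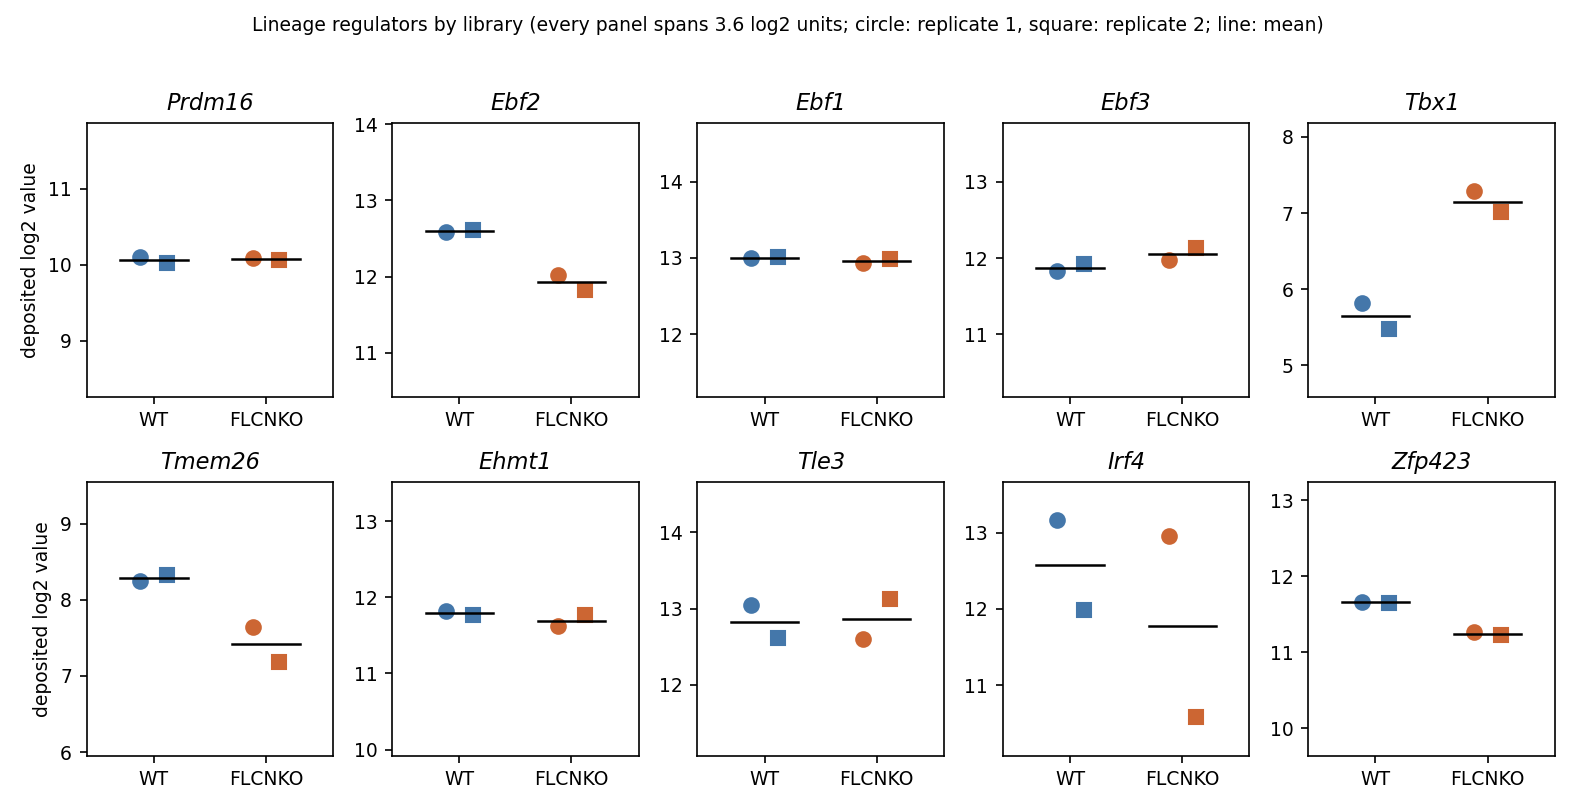
Deposited log2 value (vertical axis) of each gene in the 2 WT and 2 FLCNKO libraries (circle: replicate 1, square: replicate 2, line: group mean). Ebf2, Tmem26 and Zfp423 lie lower and Tbx1 higher in both FLCNKO libraries, Prdm16 is level near 10.1, and Irf4 is split by library within each group.

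Per kilobase of exon, the order of the genes by level was Irf4 (WT mean 10.28 on the log2 scale), Ebf2 (9.80), Ebf1 (9.72), Tle3 (9.29), Zfp423 (9.17), Ehmt1 (8.78), Ebf3 (8.67), Prdm16 (6.84), Tmem26 (5.89) and Tbx1 (3.83). Irf4 is not separated from Ebf2 and Ebf1 in this order, because its WT replicates were 10.87 and 9.70 per kilobase. Tle3 (9.50 and 9.07) likewise overlapped Zfp423 (9.17 and 9.17). Ebf2 (9.79 and 9.82) lay above Ebf1 (9.71 and 9.73) in both WT libraries, by less than 0.1. In the libraries labelled FLCNKO the order at the top was Ebf1 (9.67), Irf4 (9.48), Tle3 (9.32) and Ebf2 (9.13). This order is not resolved, because Irf4 (10.67 and 8.29) spanned the other 3, and Tle3 (9.06 and 9.58) overlapped Ebf2 (9.22 and 9.04). At the bottom Tbx1 (5.34) stood above Tmem26 (5.01), with 5.48 and 5.20 for Tbx1 against 5.25 and 4.78 for Tmem26, so these neighbours overlapped there. In WT the per-kilobase level of Tbx1 (3.83 ± 0.24, SD, n = 2) was below that of Tmem26 (5.89 ± 0.05). Exon lengths came from an annotation of another build than the authors used, so the per-kilobase order is approximate.

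Prdm16, the zinc finger regulator of the brown fate, had WT values of 10.10 and 10.02 and FLCNKO values of 10.09 and 10.07. All 4 libraries lay within 0.1 of each other and the groups overlapped. The difference was 0.02 ± 0.13 (SE, n = 2 per group; limma adjusted p = 0.957). Its 95% interval of -0.33 to 0.36 reaches from 1.25-fold lower to 1.28-fold higher, so smaller changes of Prdm16 mRNA in either direction could not be seen here. Ehmt1, the methyltransferase partner of PRDM16, had WT values of 11.82 and 11.77 against 11.62 and 11.77. Both FLCNKO values of Ehmt1 were below both WT values, one of them only just. Its difference was -0.10 ± 0.12 (adjusted p = 0.65).

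The EBF factors are close relatives that bind the same DNA motif, and none of the 3 mRNAs passed the test. The WT libraries held Ebf2 at 12.58 and 12.61, the FLCNKO libraries at 12.02 and 11.83. Both FLCNKO libraries were lower than both WT libraries, and the WT replicates were nearly equal. The difference was -0.67 ± 0.12 (SE, n = 2 per group), a 1.59-fold lower level, and it missed the threshold (limma adjusted p = 0.0629). The 95% interval before adjustment ran from -0.97 to -0.37. By p-value Ebf2 stood at rank 458 of 13677 genes, the foremost of the 10 lineage regulators.

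Ebf1, which is also a B cell factor and is expressed in preadipocytes and fat cells, stood at 12.99 and 13.02 (WT) against 12.93 and 12.99 (FLCNKO). Its difference of -0.05 ± 0.10 (limma adjusted p = 0.831) had an interval from -0.30 to 0.21, which spans 1.23-fold lower to 1.16-fold higher. Ebf3 stood at 11.82 and 11.92 (WT) against 11.98 and 12.13 (FLCNKO), so both FLCNKO values were higher. The difference for Ebf3 was 0.18 ± 0.12 (adjusted p = 0.422). Within a library, Ebf2 minus Ebf1 went from -0.41 and -0.41 (WT) to -0.92 and -1.16 (FLCNKO). Ebf3 minus Ebf2 went from -0.76 and -0.69 to -0.04 and 0.30. Ebf3 minus Ebf1 moved least, from -1.17 and -1.10 to -0.95 and -0.86. The groups did not overlap in any of the 3 gene pairs, and the exact two-sided permutation test gave p = 0.333 for each (0.333 adjusted over the 3), the smallest that 2 libraries against 2 allow.

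**Figure D2:**
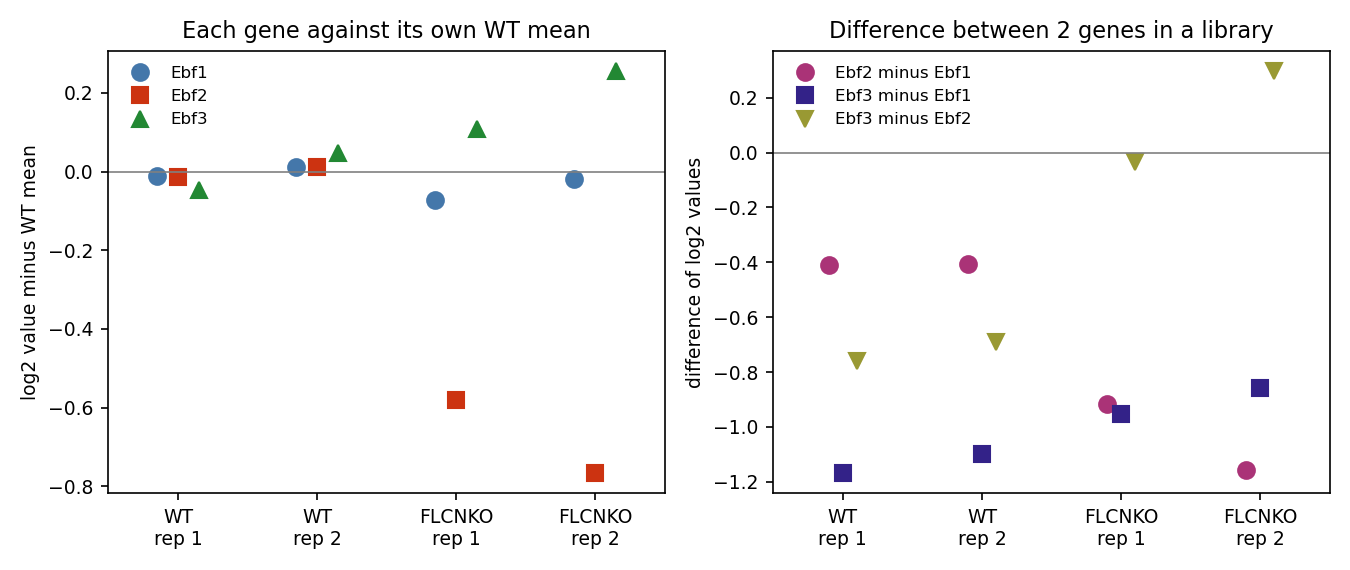
Left, log2 value of Ebf1, Ebf2 and Ebf3 minus the gene's own WT mean in each library; right, difference of log2 values between 2 of the genes in the same library, which also holds their unequal lengths, so only its shift between libraries is read. Ebf2 lies 0.58 and 0.77 below its WT mean in the FLCNKO libraries while Ebf1 stays within 0.1 of 0.

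Reads of the EBF genes were largely separable by sequence. Of stretches of 31 bases in Ebf1 transcripts, 0.552% also occurred in transcripts of other genes, and 3.09% of those of Ebf3. Ebf2 shared 5.43%, and its exons overlap the antisense gene Gm10860 over 424 bases, whose reads cannot be told apart from those of Ebf2 because no source used here gives the strand setting. The same limit holds for Ebf3, which overlaps the antisense gene Gm45278 over 355 bases. It also holds for Prdm16, which overlaps B230104I21Rik on the opposite strand over 109 bases. Tbx1, Tmem26, Tle3 and Irf4 shared no such stretch (0 in each).

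Zfp423, a zinc finger factor of committed preadipocytes that binds EBF2 and restrains it in white fat cells, stood at 11.66 and 11.65 (WT) against 11.27 and 11.23 (FLCNKO). The replicates of each group agreed to within 0.1, and both FLCNKO libraries were lower. The difference was -0.41 ± 0.11, a 1.33-fold lower level, which did not pass (limma adjusted p = 0.116). Tle3, a corepressor that promotes fat cell formation and opposes PRDM16 at its targets, stood at 13.04 and 12.61 (WT) against 12.61 and 13.13 (FLCNKO). The groups of Tle3 overlapped, and the difference of 0.04 ± 0.23 (adjusted p = 0.942) was -0.17 without WT replicate 2, -0.22 without FLCNKO replicate 2, 0.25 without WT replicate 1 and 0.30 without FLCNKO replicate 1. So the direction of Tle3 rested on single libraries.

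The lower values of Ebf2 and Zfp423 stood beside lower markers of preadipocytes and fibroblasts, the stromal cells in which both genes are known to be expressed. Of 14 such markers 1 fell (Col1a1, by 1.25 on the log2 scale, limma adjusted p = 0.0419) and 0 rose, with 11 lower and 0 higher at an unadjusted p under 0.05. The median difference of this list was -0.96, and its summed level (log2) was 19.78 and 19.59 in WT against 18.81 and 18.60 in FLCNKO. Pdgfra, the receptor gene that marks fat cell precursors, was 13.67 and 13.55 against 12.95 and 12.52. Pdgfrb, also on the list, was 12.18 and 12.38 against 12.09 and 12.31, with overlapping groups. Of the 14 markers 13 differed downward, and 1 upward (Dlk1, by 0.46, with overlapping groups). The lowest stromal marker value was 4.998, for Dlk1 in WT replicate 2, where the lowest value of any gene was 1. In bulk tissue, fewer cells of a type and less RNA per cell cannot be told apart, and the part of stromal cells in the Ebf2 and Zfp423 values was not tested. Ebf1 differed by -0.05 in the same libraries. Pericyte and smooth muscle markers, another stromal class, had a median of 0.30 with 0 of 10 called (1 higher and 2 lower unadjusted).

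Tbx1, a T-box factor used as a beige marker, had the largest difference of the 10 genes and the lowest level. Its WT values were 5.82 and 5.48 and its FLCNKO values 7.29 and 7.01, so both FLCNKO libraries were more than 1 unit above both WT libraries. The difference was 1.50 ± 0.47 (SE, n = 2 per group), a 2.83-fold higher level, and it did not pass (limma adjusted p = 0.155). The interval before adjustment reached from 0.30 to 2.70, that is from 1.23-fold to 6.51-fold. Only 2.45% of all genes had a lower WT mean, and values this low rest on few reads of unknown number. Tbx1 is also known from muscle precursors. Skeletal muscle markers had medians of 12.77 and 10.48 in WT and of 12.14 and 5.32 in FLCNKO, and the part of muscle in the Tbx1 values was not tested.

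Tmem26, a membrane protein gene also used as a beige marker, took the opposite direction. Its WT values were 8.25 and 8.32 and its FLCNKO values 7.65 and 7.18, with both FLCNKO libraries lower. The difference was -0.87 ± 0.29, a 1.83-fold lower level (limma adjusted p = 0.172), with an interval from -1.61 to -0.13. Both beige markers thus had groups that did not overlap, 1 higher and 1 lower. Of 9 further beige markers 6 had a value (Tnfrsf9, Cited1 and Shox2 had none) and 0 were called. Unadjusted, 2 were lower and 0 higher, and the median was -0.25. The immune receptor gene Cd40 differed by -0.94 and the ribonuclease gene Ear2 by -1.47, both of which are also expressed by immune cells. The fatty acid transporter gene Slc27a1 differed by -0.01, and the homeobox gene Hoxc9 by -0.04. Sp100 differed by -0.47, and Klhl13, the 1 of the 6 that differed upward, by 0.31.

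**Figure D3:**
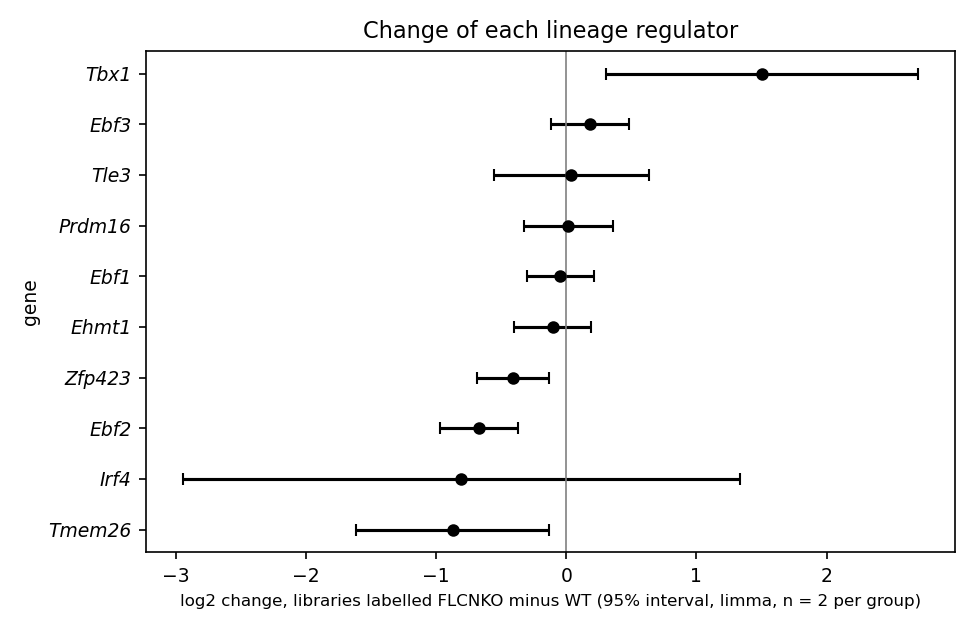
Difference in log2 value, libraries labelled FLCNKO minus WT (horizontal axis), for the 10 genes, with 95% intervals from limma (n = 2 per group, before adjustment over genes). The intervals of Ebf2, Zfp423 and Tmem26 lie below 0 and that of Tbx1 above 0, while the interval of Irf4 spans -2.95 to 1.33.

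Irf4, an interferon regulatory factor that serves both thermogenic fat cells and lymphocytes, had WT values of 13.16 and 11.99 and FLCNKO values of 12.96 and 10.58. Replicate 1 was the higher library in each group, by 1.17 in WT and by 2.38 in FLCNKO, and the groups overlapped. The difference was -0.81 ± 0.84 (limma adjusted p = 0.627). This difference was 0.38 without FLCNKO replicate 2 and -2.00 without FLCNKO replicate 1. Skeletal muscle markers had the same order of libraries, with WT medians of 12.77 and 10.48 and FLCNKO medians of 12.14 and 5.32. T cell markers had WT medians of 7.87 and 7.10 and FLCNKO medians of 8.02 and 6.70, again higher in replicate 1 of both groups. B cell markers had WT medians of 10.51 and 8.22 and FLCNKO medians of 7.74 and 6.39, so they were highest in WT replicate 1 and did not share the high Irf4 of FLCNKO replicate 1. The medians of the plasma cell, macrophage and dendritic, preadipocyte and fibroblast, effector and other activator lists were likewise higher in replicate 1 of both groups. The summed log2 level of the B cell markers was 14.33 and 12.51 (WT) then 12.21 and 11.12 (FLCNKO), that of T cell markers 11.66 and 10.88 and then 11.76 and 10.73, and that of muscle markers 17.10 and 14.19 and then 16.02 and 13.62. The lowest value among these markers was 2.37, held by Myh2 and Myf6 in FLCNKO replicate 2 and by Myf6 in WT replicate 2. No gene was lower in FLCNKO replicate 2, so both genes stood at the bottom of its range. Limma called 0 of 14 B cell, 0 of 12 T cell and 0 of 12 muscle markers (5, 0 and 0 lower and 0 higher at an unadjusted p under 0.05). Adipocyte markers had WT medians of 18.22 and 18.05 and FLCNKO medians of 17.61 and 17.99, and did not order the libraries as Irf4 did. Values near the top of nearly equal distributions can repeat, as Car3 at 20.57 in both WT libraries and FLCNKO replicate 2. The spread of the adipocyte markers was therefore not compared with that of Irf4. The part of lymphocytes or muscle in the Irf4 values was not tested.

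**Figure D4:**
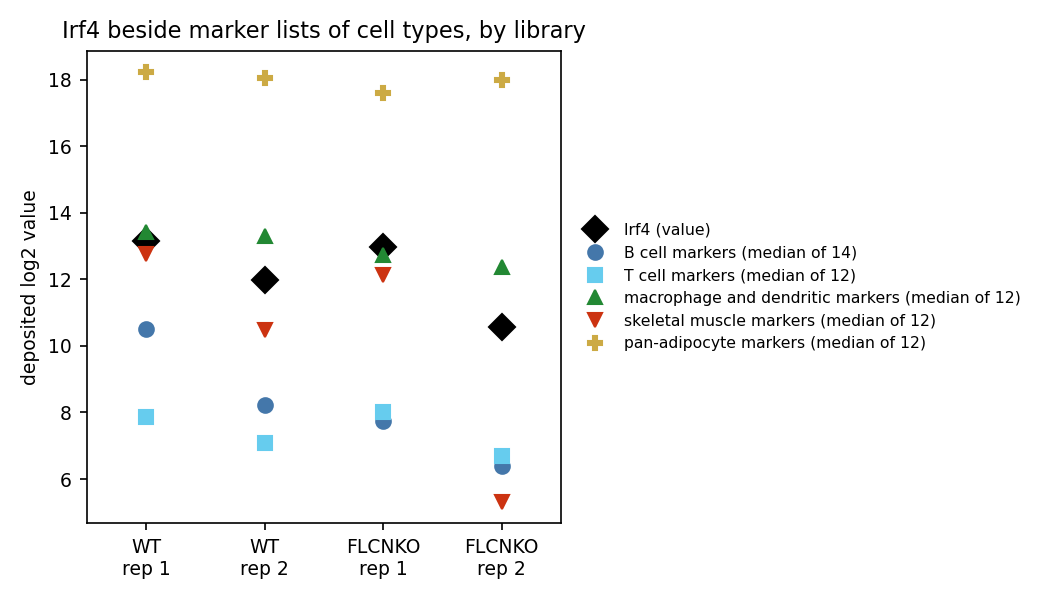
Log2 value of Irf4 and the median log2 value of 5 marker lists in each library. Irf4 and the median of every list drawn other than that of the adipocyte markers are higher in replicate 1 than in replicate 2 of both groups, while adipocyte markers stay between 17.61 and 18.22.

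A few of the surrounding pathway genes passed the test. Among 18 cofactors of PRDM16 and EBF2, Ppara, a nuclear receptor that switches on fatty acid oxidation, rose by 3.10 ± 0.15 (SE; limma adjusted p = 0.0336), from 9.65 and 9.88 to 12.97 and 12.76. It was the 1 cofactor called, and 0 fell. The list median was -0.02. The demethylase gene Kdm1a (0.06), the corepressor genes Ctbp1 (-0.09) and Ctbp2 (0.19), Zfp516 (-0.04), Nfia (-0.01) and Pparg (-0.05) all differed by less than 0.2. Smarca4 (0.31), Cebpb (0.60) and Dpf3 (1.41) were higher in both FLCNKO libraries than in both WT libraries, without passing. Of the 18, 8 differed upward and 10 downward, and the groups did not overlap in 9, beside 54.6% of all genes. The thyroid hormone receptor gene Thra (-0.39) and Ehmt2 (-0.37), the relative of Ehmt1, were lower without passing (adjusted p = 0.135 and 0.151).

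Of 20 other activators of the brown and beige fate 17 had a value, 3 rose and 0 fell, with 5 higher and 5 lower unadjusted and a median of -0.14 (-0.04 without FLCNKO replicate 1 and -0.22 without FLCNKO replicate 2). The 3 were the orphan receptor gene Esrrg (by 2.73) and the coactivator genes Ppargc1b (by 1.77) and Ppargc1a (by 1.12). The zinc finger gene Klf11 (0.70 ± 0.13, adjusted p = 0.07), the ligand gene Bmp7 (-1.04, adjusted p = 0.0991) and Zbtb16 (-0.66, adjusted p = 0.116) did not pass. Of 17 brakes on this fate 15 had a value and limma called 0, with 2 lower and 0 higher unadjusted and a median of -0.15, which was -0.08 without FLCNKO replicate 1. Those 2 were Zfp521, the close relative of Zfp423 that also binds EBF2, and the channel gene Trpv4. Zfp521 stood at 10.82 and 10.81 (WT) against 10.13 and 10.31 (FLCNKO), a difference of -0.60 ± 0.13 (adjusted p = 0.0901).

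The brown and beige effector genes, a list that holds receptor and channel genes as well as Ucp1, had the highest median of the pathway lists. Of 16 effectors 3 rose (Cox8b, Otop1 and Plin5) and 0 fell, with 11 higher unadjusted, and their median difference was 2.31. That median was 1.38 without FLCNKO replicate 1. Adrb3, the beta3-adrenergic receptor gene, differed by 0.63 ± 0.11 (limma adjusted p = 0.064). Cidea stood at 13.13 and 12.31 (WT) against 16.64 and 14.97 (FLCNKO), while Ucp1 was 10.60 and 7.42 and then 13.79 and 10.06, with overlapping groups. Of 9 classical brown markers 6 had a value and 2 rose, the adhesion gene Mpzl2 (by 2.04) and Oplah (by 0.87). Zic1, Lhx8 and Myf5 had no value, so this list does not cover them. Pdk4 differed by 3.07 and Epsti1 by -0.65, and neither passed (limma adjusted p = 0.0877 and 0.148). Hspb7 differed by -0.81, with overlapping groups (adjusted p = 0.499). Of the 6, 4 differed upward and 2 downward. Of 9 markers of white depots limma called 0, with 1 higher and 2 lower unadjusted. Slc7a10, an amino acid transporter gene of white fat cells, differed by -0.84 (limma adjusted p = 0.11) and the resistin gene Retn by -0.44. The 2 that differed upward were Agt (0.60, adjusted p = 0.19) and Hoxa5 (0.39), against 7 downward. The list median was -0.16, which became 0.14 without FLCNKO replicate 1, -0.37 without FLCNKO replicate 2 and -0.07 without WT replicate 2. Whether the lineage regulators differ from the effectors as a group was not tested.

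**Figure D5:**
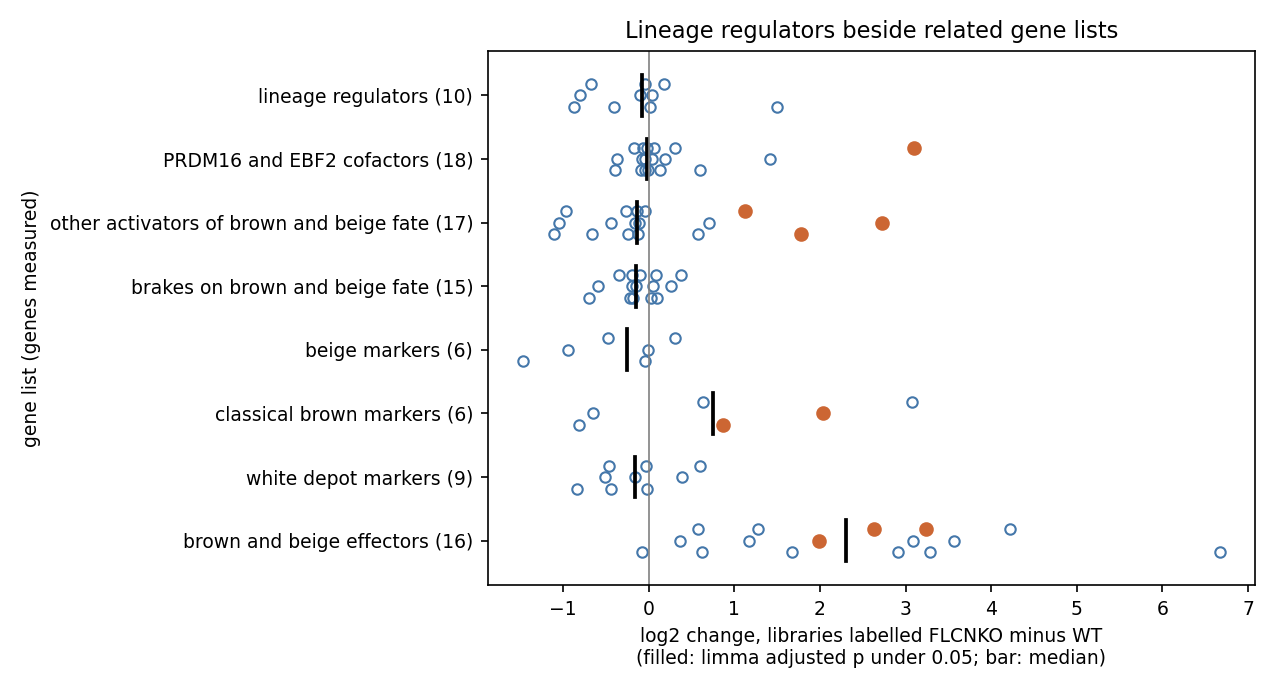
Difference in log2 value, libraries labelled FLCNKO minus WT, of each gene (points) in 8 lists, with the list median as a bar and genes past an adjusted p of 0.05 (limma) filled. The 10 lineage regulators hold no filled point and have a median of -0.07, and the effectors have a median of 2.31.

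The 4-library profiles of 66 pathway genes were set beside those of Prdm16 and Ebf2, each gene centred on its own mean. The profiles closest to Prdm16 were those of Hes1 (Euclidean distance 0.08 on the log2 scale), Hdac3 (0.11) and Gata6 (0.13), all of which varied little. The closest to Ebf2 were Zfp521 (0.27), Foxp1 (0.33) and Thra (0.38). With 4 libraries this is a description of these libraries only.

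Promoters were searched for the palindromic motif that the EBF family binds. Ebf2, Tmem26 and Zfp423 were lower in both FLCNKO libraries without passing the test, and 54.6% of all genes had groups that did not overlap. Sequences are from RefSeq (build GRCm38.p6), 250 bases before to 50 after a start, and 9 of the 10 genes matched, with 12 starts. Ebf2 had no entry. The core letters CCCNNGGG, searched on both strands, which read the same, were found in 3 of the 12, those of Ebf3, Tmem26 and the second start of Zfp423, against 13.7% of 32841 promoters of the same length. Of the 12, 11 held more CpG pairs than the median promoter, and the share over all promoters was not matched for base composition. Binding of EBF factors to these promoters was not tested. The same core with a T before it and an A after it was found in 0 of the 12 (0.904% of all). The matches were CCCGGGGG at -21 in Ebf3, CCCTGGGG at -215 in Tmem26 and CCCGTGGG at -28 in Zfp423, counted from the start. The promoters of the genes with the uncalled differences are given here together with that of Ebf3, 5′ to 3′, with the core match in capitals where there is one. Tmem26 lies at chr10:68723496-68723795 (plus strand), Zfp423 at chr8:87959546-87959845 and chr8:87804390-87804689 (minus strand), the first start of Tbx1 at chr16:18588850-18589149 (minus strand) and Ebf3 at chr7:137314396-137314695 (minus strand).
Tmem26: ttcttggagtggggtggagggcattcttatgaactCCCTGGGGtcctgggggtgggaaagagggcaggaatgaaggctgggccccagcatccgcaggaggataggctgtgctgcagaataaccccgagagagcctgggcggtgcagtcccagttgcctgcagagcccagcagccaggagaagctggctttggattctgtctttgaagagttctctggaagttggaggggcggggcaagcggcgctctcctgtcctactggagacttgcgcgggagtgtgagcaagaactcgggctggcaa
Zfp423, first start: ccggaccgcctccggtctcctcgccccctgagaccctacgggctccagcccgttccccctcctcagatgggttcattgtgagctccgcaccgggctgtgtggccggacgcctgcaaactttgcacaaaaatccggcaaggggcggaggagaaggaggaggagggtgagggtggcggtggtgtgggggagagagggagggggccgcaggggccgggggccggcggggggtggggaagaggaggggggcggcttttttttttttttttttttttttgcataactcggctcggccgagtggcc
Zfp423, second start: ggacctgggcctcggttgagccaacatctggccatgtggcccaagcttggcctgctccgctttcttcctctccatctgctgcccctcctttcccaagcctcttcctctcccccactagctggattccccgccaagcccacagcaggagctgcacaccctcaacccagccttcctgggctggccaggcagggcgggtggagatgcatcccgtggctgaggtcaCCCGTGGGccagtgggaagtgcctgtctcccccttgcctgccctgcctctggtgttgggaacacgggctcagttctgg
Tbx1, first start: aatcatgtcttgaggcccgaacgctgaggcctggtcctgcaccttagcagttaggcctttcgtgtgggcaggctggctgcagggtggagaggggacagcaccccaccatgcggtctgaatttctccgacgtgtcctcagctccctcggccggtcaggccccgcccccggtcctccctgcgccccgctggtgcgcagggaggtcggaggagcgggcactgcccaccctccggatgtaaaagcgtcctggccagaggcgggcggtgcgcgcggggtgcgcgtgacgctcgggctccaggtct
Ebf3: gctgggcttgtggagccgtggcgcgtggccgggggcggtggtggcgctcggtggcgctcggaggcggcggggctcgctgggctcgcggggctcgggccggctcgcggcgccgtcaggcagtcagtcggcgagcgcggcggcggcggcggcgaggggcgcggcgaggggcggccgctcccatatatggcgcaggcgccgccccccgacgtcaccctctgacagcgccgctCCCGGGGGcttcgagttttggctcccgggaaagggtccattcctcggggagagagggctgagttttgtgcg

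The first start of Zfp423 and both starts of Tbx1 held no core match. Ebf3, with a match, differed by 0.18, and no link between matches and differences was tested. The E-box letters CACGTG, also the same on both strands and read by the MiT/TFE factors among others, were found in 1 of the 12, at -68 of Tle3, against 7.15% of all promoters. The nuclear receptor motif AAGGTCA, searched on both strands, was in 0 of the 12 (4.72% of all). Base composition varied widely among the 12. The number of CpG pairs ran from 7 at the second start of Zfp423, which is also the median of all promoters, to 46 in Ebf3, with 24 in Prdm16, 34 in Ehmt1 and 21 in Tle3. The GC content ran from 36.7% at the first start of Ebf1 to 77% in Ebf3, beside a median of 52.7% over all promoters.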

How the data were processed

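Per the submitters' processing notes, STAR and limma were used with the mouse build mm9. No version, annotation, counting program or strand setting is given in the sources used here. The authors deposited 1 table per library of expression values for 13677 Ensembl genes, and a log2 scale was assumed. Their distributions were nearly equal in the 4 libraries, which hides any shift common to most genes. The values are not counts and the depth is unknown, so no counting interval is given.

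Ensembl identifiers gave a symbol for 13592 genes and none for 85. Groups came from the library titles. FLCNKO was set against WT in limma 3.58.1 (R 4.3.3), with group as the only term and variances moderated with a mean-variance trend (residual degrees of freedom 2, prior 3.09), two-sided, with Benjamini-Hochberg adjustment over all genes, threshold 0.05 and no filter. The fit was tested on simulated data with independent noise in each library, which does not show how well it finds the differences described here. The genes and the 18 other lists were chosen with earlier results of these data known. The plan was to name Flcn, the 10 genes, 4 reference genes, up to 4 genes of smallest p and the 2 highest of each list described. Not all of these are named, and others (such as Kdm1a, Ctbp1, Pdgfra and Hoxc9) were named after their values were seen. Lists are described by counts and medians, with no set test. Levels per kilobase use the union of exons in GENCODE M21, another build than mm9, as do shared stretches and overlaps. Alternatives were 2 filters, 2 normalizations, 3 forms of variance estimation, a replicate term and leaving out each library. Figures were drawn with matplotlib 3.10.9.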

Additional observations from a re-analysis of the deposited data

How the results depend on the processing

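No lineage regulator was called under any of the 12 alternatives, with 1 exception. With a replicate block, Ebf2 passed (difference -0.67, limma adjusted p = 0.0485), so the count of lineage regulators called lower went from 0 to 1, and over all genes 401 were higher and 441 lower, against 134 and 84. The labels do not say that a shared number pairs libraries, and deviations from the group means correlated at 0.363 over 13677 genes in both pairs, equal by construction. Genes called lower were 138 when genes with a mean under 8 were left out and 143 with robust estimation. Without the mean-variance trend 0 genes were called higher and 0 lower (1508 and 1194 unadjusted). Leaving out any 1 library also gave 0 and 0 (unadjusted 756 to 1733 higher and 639 to 1722 lower), with fewer samples by construction. With the filter at 8, Tbx1 and Tmem26 were not tested.

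Leaving out 1 library, Ebf2 ran from -0.77 to -0.58, Zfp423 from -0.43 to -0.39, Tmem26 from -1.11 to -0.64, Tbx1 from 1.33 to 1.67, Ebf1 from -0.07 to -0.02, Ehmt1 from -0.18 to -0.03 and Ebf3 from 0.11 to 0.26, with no change of direction. The direction changed for Prdm16 (-0.023 without WT replicate 2, and up to 0.056), Tle3 (-0.22 to 0.30), Irf4 (-2.00 to 0.38) and Flcn (-0.17 to 0.063), and the cause was not tested. List medians ran from -3.05 to -0.96 for B cell markers, 0.04 to 0.28 for pericyte markers, -0.02 to 0.05 for cofactors, -0.22 to -0.04 for activators and -0.17 to -0.08 for brakes. The depth is unknown, so how far it limits the low genes Tbx1 and Tmem26 cannot be given.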

Other observations

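Relatives of the lineage regulators were chosen after the values above were seen, so they are given as values with no test. Tle1, a corepressor like Tle3, had WT values of 12.06 and 12.33 and FLCNKO values of 11.25 and 11.30, and the groups did not overlap. Of 5 other Tle family genes measured, Aes had higher and Tle1 and Tle2 lower groups without overlap, where 54.6% of all genes had groups that did not overlap. Tle4 (9.88 and 9.96, then 9.97 and 9.95) was level and its groups overlapped.

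Among 7 other interferon regulatory factor genes 4 had FLCNKO values below both WT values and 0 had values above them. Over all genes 54.6% had groups that did not overlap, counting both directions. The share that was lower without overlap was not counted. Irf7, a driver of interferon genes, was 12.83 and 12.10 in WT and 11.49 and 11.20 in FLCNKO. Irf5, a factor of macrophages, was 11.38 and 11.01 and then 10.45 and 10.05. Both were also higher in replicate 1 than in replicate 2 of each group, as Irf4 was, but with no overlap of the groups. Of 12 macrophage and dendritic markers limma called 2 lower (Itgam and C1qc), with a list median of -0.71.

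Of 6 other T-box genes measured, Tbx2 (8.17 and 8.24 in WT, then 8.37 and 8.67 in FLCNKO) was higher without overlap, as Tbx1 was, and Tbx18 (8.97 and 9.19, then 8.80 and 8.44) was lower without overlap. The groups of Tbx3, Tbx5, Tbx6 and Tbx15 (11.47 and 11.38, then 11.16 and 11.63 for Tbx15) overlapped. Mecom, the nearest relative of Prdm16, was 8.96 and 9.79 in WT and 9.75 and 9.72 in FLCNKO, again with overlap.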
